A study of Mus musculus with 69 samples.

Results

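The comparison described here sets male mice that lack Cdh13 beside wildtype male mice, all of them control-reared and killed on postnatal day 22 (P22). The 17 animals were chosen by their column names in the count table, 9 as control knockouts (Ctr_ko_P22) and 8 as control wildtypes (Ctr_wt_P22), out of 69 in the series. Each animal gave 1 RNA sequencing library of the hippocampus, cut from slices of the frozen brain. Knockout animals carried the genotype knockout of Cdh13, wildtype animals the genotype wildtype, and neither group was given an agent. Control litters were handled and otherwise stayed with dams that had been housed singly, and the pups were weaned on the day they were killed. The animals came from 2 breeding rounds, with 4 knockouts and 4 wildtypes in cohort 1 and 5 knockouts and 4 wildtypes in cohort 2. The labels used here give neither the strain nor the allele nor the litter, so littermates may be among the replicates. The p-values rest on the spread between animals within groups, estimated over all 38 libraries of P22 unless another fit is named. The other groups used for comparison were 10 separated knockouts and 11 separated wildtypes at P22, from litters taken from the dam for 3 h a day between P1 and P14, and 7 control knockouts and 7 control wildtypes at P66.

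Cdh13 encodes T-cadherin, a cadherin that lacks the transmembrane and cytoplasmic parts of its relatives and is held in the membrane by a lipid anchor. It serves as a receptor for adiponectin and low-density lipoprotein on vessels and muscle, and it acts as an adhesion and guidance molecule on growing axons. In the hippocampus it is known from interneurons and from the balance between inhibitory and excitatory synapses, and the human gene has been linked to attention-deficit/hyperactivity disorder. Day 22 falls at weaning, when myelin is still being laid down and synapses of the hippocampus are maturing.

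The table analysed here covers chromosomes 1 to 7 and the start of chromosome 8, so Cdh13 itself was not analysed and the genotype labels were taken without a check on its level. Libraries held 12.6 to 14.8 M counts in knockouts (M, mega; mean 13.7 ± 0.684 M, SD, n = 9) and 12.1 to 13.7 M in wildtypes (12.9 ± 0.541 M, SD, n = 8). Genes that mark hippocampal neurons were at high levels in each library, which matches the labelled tissue. Prox1, a transcription factor of dentate granule cells, lay between 236 and 375 counts per M counts (CPM) in knockouts and between 220 and 417 CPM in wildtypes, and Wfs1, a marker of CA1, between 259 and 345 CPM in knockouts and between 255 and 428 CPM in wildtypes. Wildtype libraries C1-12 and C2-85 stood apart in a set of genes described further on, wildtype C1-56 and knockout C2-43 lay at the ends of a score of gene span, and knockout C1-4 had the least choroid plexus RNA. For some of the lists and genes that lean on these libraries, values without them are given. A gene without such a value may lean on them too.

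No gene passed the test between control knockouts and control wildtypes at weaning. Of 7036 genes tested with edgeR's quasi-likelihood test, 0 (0%) had a Benjamini-Hochberg adjusted p under 0.05, and the smallest adjusted p was 0.393, shared by 528 genes. An unadjusted p under 0.05 was found for 845 genes (12%). Of these, 275 were higher in knockouts (3.91% of genes tested) and 570 lower in knockouts (8.1%). DESeq2 and limma-voom also called 0 genes, with 885 and 874 at an unadjusted p under 0.05. No gene had ranges that stayed apart, with 0% of genes higher in each knockout than in each wildtype animal and 0% lower. The differences were small, with a median size of 0.08 on the log2 scale over all genes. The median half-width of the 95% interval of a gene's log2 difference was 0.15, and for 1 gene in 10 it was above 0.39. An absolute log2 difference over 0.5 was seen for 99 genes, 45 of them with an unadjusted p under 0.05.

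Among the 20 genes with the smallest p, 16 had lower and 4 had higher mean levels in knockouts. Mllt3, which encodes a subunit of the complexes that help RNA polymerase II elongate, had the smallest p (chromosome 4, 87769925 to 88033364). Its level was 69.1, 77.7 and 85.6 CPM (lowest, median and highest) in knockouts and 84.2, 91.9 and 97.7 CPM in wildtypes. Each of the 9 knockouts lay below the wildtype median, and the ranges met only at their edges. The log2 difference was -0.22 ± 0.053 (SE; edgeR, unadjusted p = 0.000169, adjusted p = 0.393), and it was -0.21 in cohort 1 and -0.21 in cohort 2.

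Several of these genes encode proteins of synapses and of the neuronal membrane. Lrrc7 encodes densin, a scaffold of the postsynaptic density. It was at 139, 167 and 198 CPM in knockouts and 164, 203 and 277 CPM in wildtypes, a log2 difference of -0.32 ± 0.086 (SE). Wildtypes C1-12 and C1-56 were the highest, at 277 and 269 CPM, while all 9 knockouts were below the wildtype median. Without C1-12 the log2 difference was -0.26. Lrrc4c encodes a synaptic adhesion molecule that binds netrin-G1, and it was at 148, 187 and 205 CPM in knockouts against 197, 212 and 226 CPM in wildtypes (log2 difference -0.23 ± 0.0662, SE). Ntng1, which encodes netrin-G1, was at 54, 66.7 and 94.5 CPM in knockouts and 72.4, 87 and 95.7 CPM in wildtypes (-0.28), with -0.11 in cohort 1 and -0.42 in cohort 2. Folh1 encodes the glutamate carboxypeptidase that splits the peptide transmitter NAAG. It was at 8.67, 11.3 and 14.5 CPM in knockouts and 11.6, 14.4 and 22.7 CPM in wildtypes (log2 difference -0.48 ± 0.133, SE), and 8 of 9 knockouts were below the wildtype median.

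The cation channel gene Trpc4 differed by -0.26 on the log2 scale (knockouts 148 ± 16 CPM, SD, n = 9; wildtypes 177 ± 23.9 CPM, SD, n = 8). Csmd1, a large membrane protein that restrains complement, differed by -0.26 (219 ± 17 CPM in knockouts, 262 ± 43 CPM in wildtypes). Without wildtype C1-12 the difference of Csmd1 was -0.19. Caln1, a neuronal calcium sensor, differed by -0.23 (549 ± 45.7 CPM in knockouts, 646 ± 69.7 CPM in wildtypes). For these 3 genes all 9 knockouts were below the wildtype median and the ranges overlapped. Of genes that act in the nucleus, Chd2, a chromatin remodeller, differed by -0.18 (140 ± 10.1 CPM in knockouts, 158 ± 10.3 CPM in wildtypes), Cxxc4, an inhibitor of Wnt signalling, by -0.31 and Csrnp3 by -0.25. The zinc finger genes Zfp804b and Zfp951 differed by -0.52 and -0.51 at levels under 10 CPM. Osbpl6, of the oxysterol-binding family, differed by -0.17, and the genes 5730480H06Rik and 4932438A13Rik by -0.24 and -0.27.

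Of the genes with higher means, 3 are described here. Pomgnt1 encodes a glycosyltransferase that builds the sugar chains of dystroglycan, and its level was 157, 173 and 190 CPM in knockouts and 144, 157 and 172 CPM in wildtypes. That is a log2 difference of 0.15 ± 0.0388 (SE), with 9 of 9 knockouts above the wildtype median. Fxyd1, which encodes the sodium pump regulator phospholemman, was at 47.9, 55.8 and 74.7 CPM in knockouts and 37.4, 46 and 59.8 CPM in wildtypes (log2 difference 0.33 ± 0.0915, SE). The 4 highest knockouts were all of cohort 2, and the difference was 0.23 in cohort 1 and 0.42 in cohort 2. Bdh2, a dehydrogenase of hydroxybutyrate, was at 3.5, 4 and 5.72 CPM in knockouts and 2.36, 2.81 and 3.68 CPM in wildtypes (0.51 ± 0.146, SE), with the same 0.51 in each cohort. Over all 20 genes the adjusted p was 0.393.

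**Figure D1:**
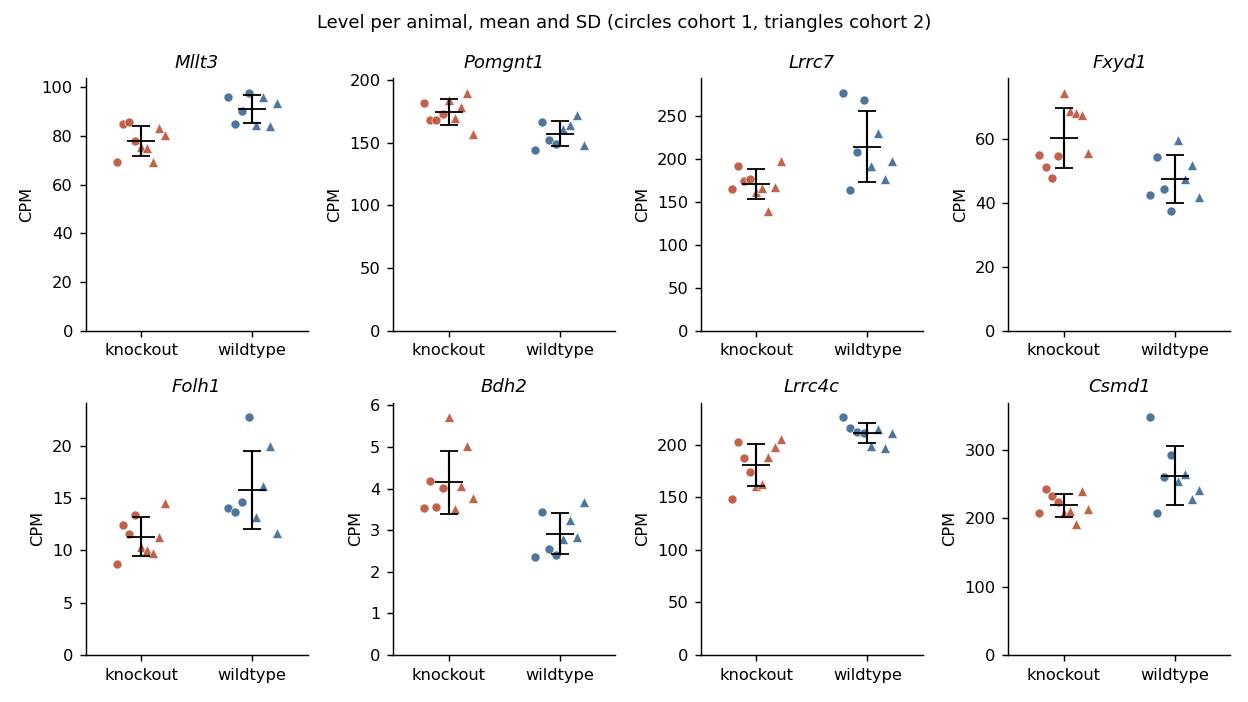
Level per animal in CPM (y axis, from 0) of 8 of the 20 genes with the smallest p, knockouts (red) left of wildtypes (blue), circles for cohort 1 and triangles for cohort 2, with the mean and SD. The ranges overlap in each panel, for example 69.1 to 85.6 CPM in knockouts and 84.2 to 97.7 CPM in wildtypes for Mllt3.

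The difference between genotypes followed the genomic span of the gene, that is, the distance between its first and last base. The median log2 difference was 0.06 for the 1580 genes under 10 kb and 0.02 for the 2276 genes of 10 to 30 kb. It was -0.03 for the 2096 genes of 30 to 100 kb, -0.06 for the 830 genes of 100 to 300 kb and -0.11 for the 254 genes over 300 kb. Long genes had lower and short genes higher levels in knockouts, with 85.4% of genes over 300 kb below 0 against 27.3% of those under 10 kb. An unadjusted p under 0.05 with a lower level in knockouts was found for 28.7% of genes over 300 kb and 1.77% of genes under 10 kb. In the other direction the shares were 0.394% of genes over 300 kb and 6.27% of genes under 10 kb.

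The order of the classes was the same in each cohort. In cohort 1 the medians ran from 0.06 for the shortest class to -0.09 for the longest, and in cohort 2 from 0.06 to -0.10. Among separated animals the knockout minus wildtype medians ran from -0.01 for the shortest to 0.02 for the longest class, and among control animals at P66 from -0.01 to 0.02. Transcript length went with the same order, and the longest transcript per gene gave medians of 0.05 under 2 kb and -0.10 over 8 kb. Among the 1084 genes with a span of 100 kb or more, the median was 0.01 for the 31 with transcripts under 2 kb and -0.11 for the 260 with transcripts over 8 kb. Among genes with a span under 30 kb it was 0.06 for 1243 genes with transcripts under 2 kb and -0.03 for 40 genes over 8 kb. The spread over genes is not a spread over animals, and no test was made of these medians.

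For each animal a gene-span score was taken as the mean centred log2 CPM of genes of 100 kb or more minus that of genes under 10 kb. It was -0.276, -0.01 and 0.08 (lowest, median and highest) in knockouts and -0.06, 0.05 and 0.224 in wildtypes. Knockout C2-43 had the lowest and wildtype C1-56 the highest score, and the other 15 animals lay between -0.191, of knockout C1-4, and 0.119, of wildtype C1-12. Without C2-43 and C1-56 the medians of the classes ran from 0.03 for the shortest to -0.07 for the longest, in the same order. The count of genes at an unadjusted p under 0.05 was then 286 in place of 845. It was 439 without wildtype C1-56 alone, 574 without knockout C2-43 alone, and 1271 without knockout C2-96, which had the highest score among knockouts. With the score as a covariate it was 223. The score is built from genes that are themselves tested, so a fit with it removes part of their differences by construction. What moves the score was not tested.

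**Figure D2:**
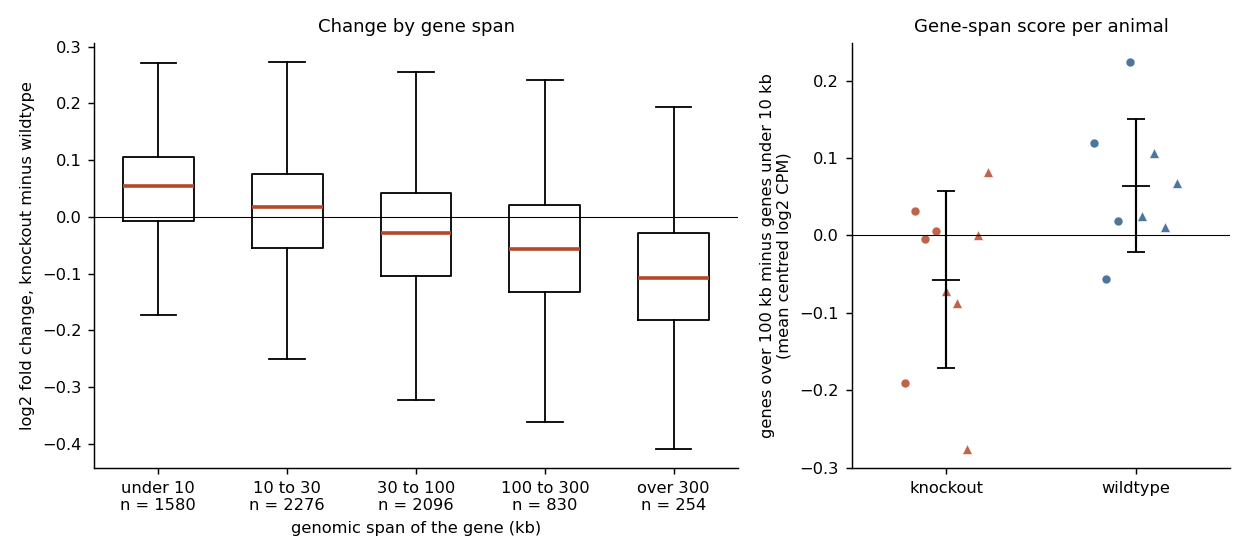
Left, log2 fold change between knockout and wildtype animals by genomic span of the gene (line, median; box, quartiles; whiskers, to the last value within 1.5 box lengths; values beyond not drawn), with medians from 0.06 under 10 kb to -0.11 over 300 kb. Right, the gene-span score of each animal with mean and SD, knockouts left of wildtypes, circles for cohort 1 and triangles for cohort 2; the groups overlap.

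GABA and glutamate receptors and voltage-gated channels had mostly lower mean levels in knockouts. Of 8 tested monoamine receptor genes 7 were higher and 1 lower (median log2 difference 0.09), with 0 at an unadjusted p under 0.05. The monoamine median was 0.22 in cohort 1 and -0.02 in cohort 2. With the gene-span score as a covariate 4 of these genes were higher and 4 lower. All members of the lists that follow had an adjusted p above 0.39, and over all genes 8.1% were lower and 3.91% higher at an unadjusted p under 0.05. In bulk tissue, fewer cells of a type and less RNA per cell cannot be told apart. Among GABA receptor genes, which encode the receptors of inhibitory transmission, 9 of 10 tested members were lower and 1 higher, with a median log2 difference of -0.16 against 0.00 over all genes, and 3 were lower at an unadjusted p under 0.05. Gabrb1 was at 342, 476 and 519 CPM in knockouts and 448, 558 and 670 CPM in wildtypes (log2 difference -0.28 ± 0.1, SE; 9 of 9 knockouts below the wildtype median). Gabra2 was at 264, 337 and 495 CPM in knockouts and 355, 435 and 531 CPM in wildtypes (-0.30), and Gabrg3 at 47, 56.1 and 61.4 CPM in knockouts and 53.2, 59.3 and 72.4 CPM in wildtypes (-0.16). Gabrd, the subunit of receptors outside the synapse, was the exception with 0.10, but it had -0.06 in cohort 1 and -0.0043 with the gene-span score as a covariate. Without knockout C2-43 it was 0.05 and without wildtype C1-32 it was 0.15.

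Among glutamate receptor genes 8 of 12 were lower and 4 higher (median -0.12), and 4 were lower at an unadjusted p under 0.05. The metabotropic receptor gene Grm5 was at 393, 495 and 617 CPM in knockouts and 483, 575 and 732 CPM in wildtypes (log2 difference -0.26 ± 0.0969, SE). Grin2b, the NMDA receptor subunit most abundant early in life, was at 1129 ± 151 CPM in knockouts and 1348 ± 297 CPM in wildtypes (SD; -0.25). Without wildtype C1-56 its difference was -0.19. Gria2, the subunit that sets the calcium permeability of AMPA receptors, was at 1495 ± 248 CPM in knockouts and 1792 ± 243 CPM in wildtypes (SD; -0.26). Grin1, the obligatory NMDA receptor subunit, differed by 0.10, and by 0.07 without knockout C1-4.

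Voltage-gated channel genes had 19 of 26 members lower and 7 higher (median -0.12), and 10 were lower at an unadjusted p under 0.05. They included the sodium channel genes Scn2a (-0.22), Scn3a (-0.24), Scn9a (-0.27) and Scn1a (-0.21), which lie near one another on chromosome 2. Scn2a, of the axons of excitatory neurons, was at 593, 736 and 823 CPM in knockouts and 719, 838 and 943 CPM in wildtypes, with 9 of 9 knockouts below the wildtype median. Scn3a averaged 160 ± 21.3 CPM in knockouts and 189 ± 20.8 CPM in wildtypes, and Scn9a 23.5 ± 3.69 CPM in knockouts and 28.2 ± 3.57 CPM in wildtypes (SD, n = 9 and 8). The short potassium channel genes Kcna3 (-0.46), with a span of 1.9 kb, and Kcna2 (-0.16), with 13.9 kb, were among the 10 as well.

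These lists hold long genes, with median spans of 120 kb for GABA receptors, 232 kb for glutamate receptors and 102 kb for channels, against 25.9 kb over all genes tested. Measured from the median of its own span class, the median member was at -0.09 for GABA receptors, -0.04 for glutamate receptors and -0.06 for channels. Without wildtype C1-56 and knockout C2-43, 0 GABA receptor, 0 glutamate receptor and 3 channel genes were lower at an unadjusted p under 0.05, and the medians were -0.09, -0.11 and -0.08. For all genes that setting gave 191 lower and 95 higher. The part of gene span and of these libraries in the lists was not tested.

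At the postsynaptic scaffold 8 of 14 genes were lower and 6 higher (median -0.02). The 3 that were lower at an unadjusted p under 0.05 encode Dlg2, a scaffold of the PSD-95 family, Nlgn1, an adhesion protein of excitatory synapses, and Lrrtm4, which organises dentate synapses. Their spans are 1359, 906 and 791 kb, in the class over 300 kb, where 28.7% of genes were lower at that p. Measured from the median of its own span class, the median member of the list was at 0.02. With the gene-span score as a covariate 3 members were higher and 11 lower, with 0 at an unadjusted p under 0.05. Dlg2 averaged 967 ± 64 CPM in knockouts and 1078 ± 76.7 CPM in wildtypes (SD; log2 difference -0.16 ± 0.0497, SE), Nlgn1 differed by -0.21 and Lrrtm4 by -0.26. Without wildtype C1-12 the difference of Lrrtm4 was -0.19. Presynaptic release genes had 10 of 16 higher and 6 lower (median 0.02). Slc17a7, the vesicular glutamate transporter VGLUT1, was at 3218, 3663 and 4963 CPM in knockouts and 3106, 3404 and 3658 CPM in wildtypes (0.14), with knockout C1-4 far above the others, and the difference was 0.09 without it. Pclo, a giant scaffold of the release site, was at 435, 594 and 644 CPM in knockouts and 504, 656 and 762 CPM in wildtypes (-0.16), with knockout C2-43 the lowest. Stx1a, a fusion protein of synaptic vesicles, differed by 0.12, and by 0.07 without knockout C2-43.

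Genes nearest to T-cadherin by family and function showed small differences. Of 44 listed cadherins, protocadherins and catenins 14 were tested, 11 of them lower and 3 higher (median log2 difference -0.10), and 2 were lower at an unadjusted p under 0.05. The median span of this list is 106 kb, and measured from the median of its own span class the median member was at -0.05. With the gene-span score as a covariate 4 were higher and 10 lower, with 0 at an unadjusted p under 0.05. Pcdh7, a protocadherin of neurons, was at 115, 131 and 180 CPM in knockouts and 144, 158 and 185 CPM in wildtypes (-0.25), and Cdh7 at 7.93, 13.1 and 17.7 CPM in knockouts and 11.9, 15.8 and 21.1 CPM in wildtypes (-0.32). Ctnnbip1, an inhibitor of beta-catenin, differed by 0.09. In the axon guidance list 15 of 23 were lower and 8 higher (median -0.05). Its median span is 154 kb, and its median member was at -0.02 from the median of its own span class. Ntng1, given above, had the smallest p of them, Plxna2, a semaphorin receptor, differed by -0.10 and Sema4f by 0.08.

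Of 24 listed genes of adiponectin and T-cadherin signalling 13 were tested, 7 lower and 6 higher, with a median log2 difference of 0.00. The adiponectin receptor genes had small differences. Adipor1 averaged 196 ± 11.5 CPM in knockouts and 187 ± 6.57 CPM in wildtypes (0.06, 95% interval from -0.01 to 0.14), and Adipor2 163 ± 17.6 CPM in knockouts and 156 ± 16.7 CPM in wildtypes (0.06, from -0.07 to 0.20; SD, n = 9 and 8). For Adipor2 the difference was 0.03 without wildtype C1-12 and 0.10 without wildtype C2-85. Genes of the AMP-activated kinase, which adiponectin receptors turn on, differed by -0.14 for the catalytic subunit Prkaa2, 0.07 for Prkab1, -0.05 for Prkab2 and -0.01 for Prkag2. Its target Acacb, an acetyl-CoA carboxylase, differed by 0.12, by 0.07 without knockout C2-10 and by 0.23 without wildtype C2-27. Pparg, a nuclear receptor of lipid metabolism, was the member with the smallest p, at 2.43, 3.71 and 6.1 CPM in knockouts and 3.57, 5.37 and 6.51 CPM in wildtypes (-0.46 ± 0.138, SE; -0.44 in cohort 1 and -0.45 in cohort 2). Its coactivator Ppargc1a was at 79.9, 89.8 and 105 CPM in knockouts and 92.7, 103 and 118 CPM in wildtypes (-0.19, edgeR, unadjusted p = 0.0143). Proteins linked to T-cadherin in vessel cells had differences of 0.03 for the kinase Ilk, -0.07 for the chaperone Hspa5, 0.02 for the GTPase Rac1 and 0.00 for Cdc42. That of Hspa5 was -0.12 without wildtype C2-85 and -0.03 without wildtype C1-50, and that of Prkab2 was 0.00 without wildtype C1-56 and -0.08 without wildtype C2-27.

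Choroid plexus and ependymal genes lay higher in knockouts as far as their means go. The choroid plexus makes cerebrospinal fluid and hangs in the ventricle beside the hippocampus, and ependymal cells line that ventricle. Of 28 choroid plexus genes listed 16 were tested, and all 16 had higher means in knockouts, with a median log2 difference of 0.63 and 2 at an unadjusted p under 0.05. None of the 16 was at 0 in all libraries. Their summed level was 259, 696 and 1088 CPM in knockouts and 272, 417 and 789 CPM in wildtypes, so the groups overlapped over most of their range. Knockout C1-4 was the lowest of all 17 animals, and 3 of the 4 wildtypes of cohort 1 lay near it, between 272 and 317 CPM.

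Aqp1, a water channel, was at 2.76, 32.2 and 59.5 CPM in knockouts and 5.12, 14.5 and 37.5 CPM in wildtypes (0.88 ± 0.48, SE). Steap1, a metalloreductase, was at 1.07, 6.3 and 12.4 CPM in knockouts and 1.28, 2.58 and 7.89 CPM in wildtypes (0.93 ± 0.409, SE), and Wfdc2, a secreted protease inhibitor, differed by 0.87. These 3 and the defensin gene Defb11 (0.84) had the largest positive differences among genes whose mean log2 CPM was 1 or more, and in all 4 knockout C1-4 was the lowest knockout. Without wildtype C1-32 the difference was 1.37 for Wfdc2 and 1.28 for Defb11. The bicarbonate exchanger gene Slc4a2 was at 66, 103 and 157 CPM in knockouts and 54.2, 80.5 and 124 CPM in wildtypes (0.35). Without knockout C1-4 the list had a median of 0.76 and 9 of 16 genes at an unadjusted p under 0.05. For all 7036 genes that setting gave 256 higher and 320 lower. C1-4 was singled out for its low choroid plexus RNA, so leaving it out raises this difference by construction. With all animals kept, the median of the list was 0.44 in cohort 1 and 0.72 in cohort 2. It was -0.43 between separated knockouts and wildtypes at P22 and -0.19 between control animals at P66.

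Among ependymal genes all 10 tested were higher (median 0.32), 3 of them at an unadjusted p under 0.05, and their summed level was 64.5, 80.1 and 107 CPM in knockouts and 42, 70.3 and 107 CPM in wildtypes. Cfap126, of the base of motile cilia, was at 4.69, 6.86 and 9.96 CPM in knockouts and 2.72, 4.05 and 7.97 CPM in wildtypes, with 9 of 9 knockouts above the wildtype median (0.62 ± 0.241, SE). Rarres2, the gene of the chemoattractant chemerin, differed by 0.35 and Mia by 0.54. For separated animals the median was -0.30, and at P66 it was -0.29. Across the 17 animals the choroid plexus score (mean log2 CPM of the list) had a Spearman's rho of -0.38 with the gene-span score, and both are computed from the same libraries. With the choroid plexus score as a covariate the test called 0 genes in edgeR, and 1139 were at an unadjusted p under 0.05. The part of choroid plexus and ependymal RNA in the other results was not tested.

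**Figure D3:**
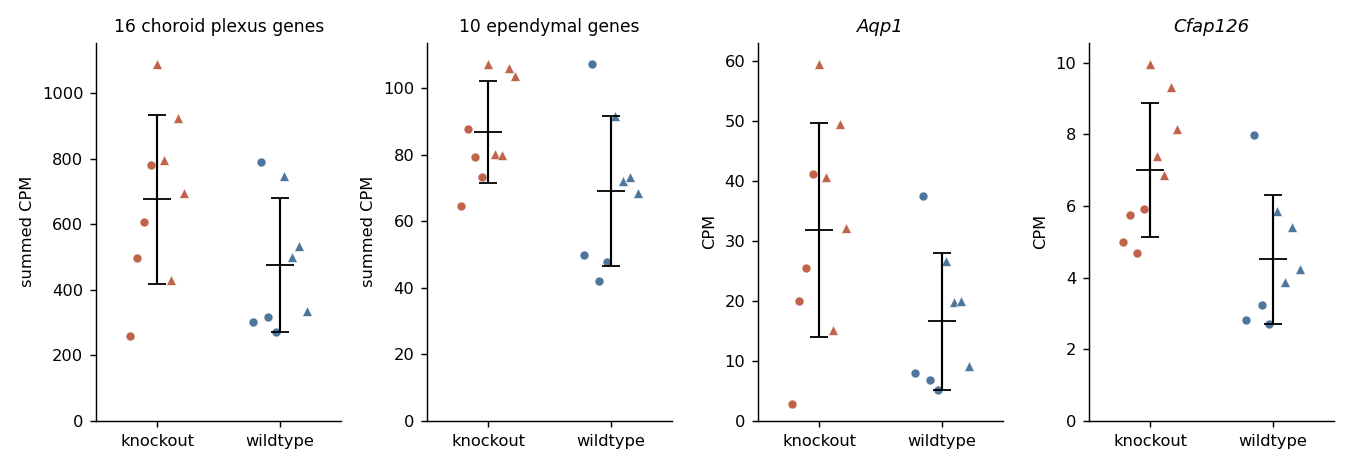
Summed CPM of 16 choroid plexus genes and of 10 ependymal genes, and CPM of Aqp1 and Cfap126, per animal with mean and SD (y axes from 0), knockouts left of wildtypes, circles for cohort 1 and triangles for cohort 2. Knockout C1-4 is the lowest point for choroid plexus (259 CPM), and the groups overlap in each panel.

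Genes of mature oligodendrocytes had higher and those of their precursors lower means in knockouts. All 11 tested genes of myelinating oligodendrocytes were on the higher side (median log2 difference 0.15), with 0 at an unadjusted p under 0.05, and the median was 0.02 in cohort 1 and 0.23 in cohort 2. Mag, a myelin adhesion protein, was at 563, 631 and 984 CPM in knockouts and 389, 509 and 819 CPM in wildtypes (0.27), Gsn, the actin-severing gelsolin, differed by 0.30 and Gpr37 by 0.14. Knockout C2-10 was the highest of all for Mag and Gsn. All 7 tested genes of oligodendrocyte precursors were lower (median -0.11, from -0.21 to -0.03), 2 of them at an unadjusted p under 0.05. Tnr, the matrix protein tenascin-R, was at 544, 694 and 760 CPM in knockouts and 634, 803 and 915 CPM in wildtypes (-0.21), Ptprz1 differed by -0.19 and Sox6 by -0.11. The precursor list has a median span of 293 kb, and with the gene-span score as a covariate its genes were 3 higher and 4 lower. Between separated knockouts and wildtypes at P22 the median was -0.16 for mature oligodendrocytes and -0.01 for precursors. Between control animals at P66 these medians were -0.02 and -0.04.

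For interneurons, which are known to carry T-cadherin, 13 of 20 genes were lower and 7 higher (median -0.04), with 2 lower and 1 higher at an unadjusted p under 0.05. Gad2, which makes GABA, was at 314, 328 and 391 CPM in knockouts and 333, 396 and 420 CPM in wildtypes (-0.18; 9 of 9 knockouts below the wildtype median). Erbb4, a neuregulin receptor of interneurons with a span of 1076 kb, was at 90.4, 108 and 176 CPM in knockouts and 126, 143 and 176 CPM in wildtypes (-0.36). Npy, the gene of neuropeptide Y, went the other way with 69.7, 78 and 127 CPM in knockouts and 68.6, 73.3 and 83.7 CPM in wildtypes (0.19), and its difference was 0.10 without knockout C2-43, the highest animal. Of 13 neuropeptide genes 7 were higher and 6 lower (median 0.03), with Nxph1, a ligand of neurexin, at -0.10.

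Trh, which encodes thyrotropin-releasing hormone, differed by -1.60 ± 0.518 (SE; edgeR, unadjusted p = 0.00384). Its level was 0.933, 2.38 and 3.02 CPM in knockouts and 1.58, 3.74 and 25.8 CPM in wildtypes, the highest in wildtype C1-32. Without that animal the log2 difference was -0.66. Of the thalamus and habenula list, to which Trh and Ntng1 also belong, 9 of 15 genes were higher and 6 lower (median 0.03), with Ttn at -0.27, or -0.18 without wildtype C1-56.

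Genes of cytosolic ribosomal proteins, which are short and abundant, mostly had higher means in knockouts. Of 36 tested genes 35 were higher and 1 lower (median 0.09), 1 of them at an unadjusted p under 0.05, and the median was 0.05 in cohort 1 and 0.15 in cohort 2. Rpl28 was at 220, 254 and 324 CPM in knockouts and 181, 228 and 249 CPM in wildtypes (0.20), and Rplp0 and Rplp2 each differed by 0.13. Near-identical processed copies of ribosomal protein genes can share their reads, so single values are uncertain. The median span of the list is 3.47 kb, and with the gene-span score as a covariate the direction turned, with 2 higher and 34 lower (median -0.04). Genes under 10 kb enter that score, so the turn is partly built in and says little about these genes.

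Of 18 genes of complement and inflammation 12 were higher and 6 lower (median 0.12), and 3 were higher at an unadjusted p under 0.05. C1qa, a subunit of the first complement component made by microglia, was at 65.7, 75.5 and 98.1 CPM in knockouts and 60.8, 71 and 79.5 CPM in wildtypes (0.20). C1ra, a protease of that component, was at 3.28, 4.38 and 6.29 CPM in knockouts and 2.47, 3.15 and 4.44 CPM in wildtypes (0.36), and Serping1, its inhibitor, differed by 0.23. Without wildtype C1-56 and knockout C2-43 none of the list was at an unadjusted p under 0.05 in edgeR (median 0.06). Cell cycle genes were 11 higher and 8 lower of 19 (median 0.02), with 4 higher at an unadjusted p under 0.05, among them the replication helicase genes Mcm2 (0.19) and Mcm3 (0.22) and the cyclin gene Ccne1 (0.13). The cell cycle median was -0.05 in cohort 1 and 0.14 in cohort 2.

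Among 29 imprinted genes 12 were higher and 17 lower (median -0.06), with 1 higher and 5 lower at an unadjusted p under 0.05. The median of the list was -0.07 in cohort 1 and 0.03 in cohort 2. Peg3, a zinc finger gene expressed from the paternal allele, was at 591, 669 and 781 CPM in knockouts and 700, 798 and 867 CPM in wildtypes (-0.23 ± 0.0725, SE), with 9 of 9 knockouts below the wildtype median. Zdbf2 was at 37.2, 46.9 and 78.4 CPM in knockouts and 42.7, 68.4 and 74 CPM in wildtypes (-0.43), so that its highest value was in a knockout. Ppp1r9a, which encodes the spine protein neurabin, differed by -0.16.

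The largest negative differences came from a set of genes that stood out in few wildtype animals. Among genes whose mean log2 CPM was 1 or more, Gpr55 (-1.70), Trh, Cd44 (-1.22) and Cdk8 (-1.17) had the lowest values. Gpr55 is a receptor of lysophospholipids, Cd44 the hyaluronan receptor and Cdk8 the kinase of the Mediator complex. Wildtype C1-12 held 119 CPM of Cd44 and wildtype C2-85 held 35.4 CPM, where the knockouts lay between 8.63 and 16 CPM. Cdk8 was at 3668 CPM in C1-12 and 1084 CPM in C2-85, where the knockouts lay between 219 and 644 CPM. Spata5 and Tmem56, added after the values were seen, had the same pattern.

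Relative to the median of the other 15 control animals, C1-12 was 7.54 times as high for Spata5, 10 times for Cdk8, 9.16 times for Cd44, 5.43 times for Tmem56 and 14.1 times for Gpr55. In C2-85 the same ratios were 2.23, 2.97, 2.71, 1.54 and 5.05. Without both animals the log2 differences were -0.08 for Spata5, 0.02 for Cdk8, -0.11 for Cd44, -0.16 for Tmem56 and 0.05 for Gpr55. Beyond these 17 animals, with library sizes scaled over all 69 libraries (3669 CPM in C1-12 and 1079 CPM in C2-85 on that scale), Cdk8 was at 5440 CPM in a separated wildtype at P66 (C1-57), 3545 CPM in a separated wildtype at P22 (C2-75), 938 CPM in a control wildtype at P66 (C1-15) and 932 CPM in a separated knockout at P22 (C2-23). The separated knockout C2-23 did not share the whole pattern. Its Cd44 (15.5 CPM) and Tmem56 (137 CPM) lay below those of another separated knockout, C2-36 (20.6 and 160 CPM). In the control wildtype C1-15 these 2 genes were at 36 and 214 CPM. The 5 genes lie on chromosomes 1, 2, 3 and 5, and their annotated transcripts share no run of 25 bases on either strand.

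**Figure D4:**
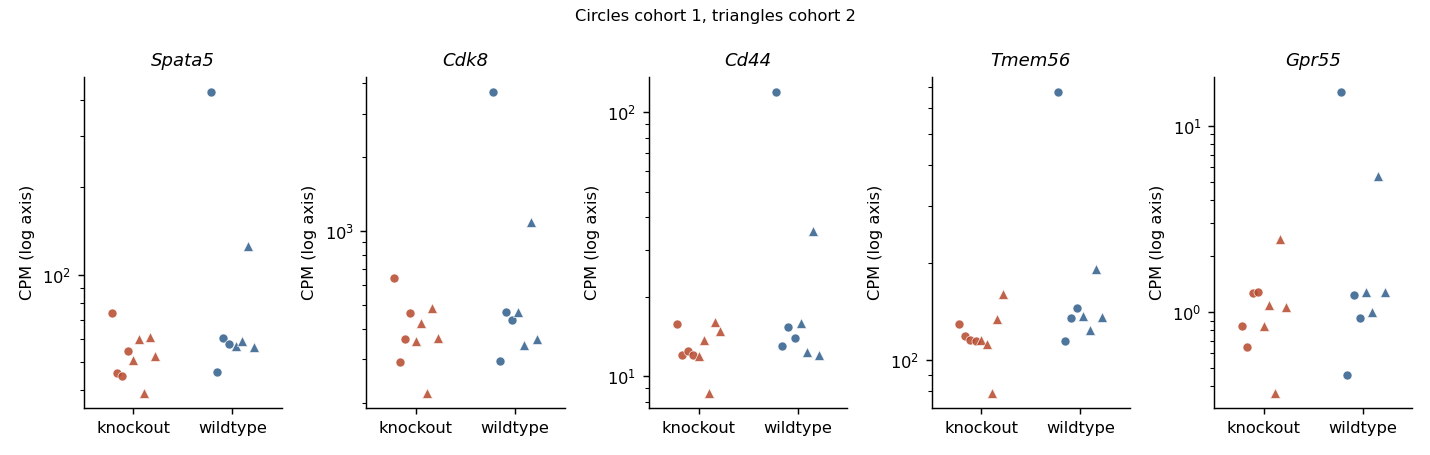
Level of Spata5, Cdk8, Cd44, Tmem56 and Gpr55 per animal in CPM on log axes, knockouts (red) left of wildtypes (blue), circles for cohort 1 and triangles for cohort 2. The top wildtype in each panel is C1-12 and the next is C2-85, for example 3668 and 1084 CPM for Cdk8.

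Whether the genotype difference of control animals differs from that of separated animals was tested at P22, and 0 of 7036 genes passed in edgeR (smallest adjusted p = 0.299). An unadjusted p under 0.05 was found for 587 genes (8.34%). By p the leading genes were Naaa, Usp13 and Bdh2. Naaa encodes the enzyme that breaks down the lipid mediator palmitoylethanolamide, and its log2 difference was 0.13 in control and -0.12 in separated animals. Usp13, a deubiquitinase, had -0.16 in control and 0.16 in separated animals. Bdh2 had 0.51 in control and -0.33 in separated animals, a difference of 0.84 ± 0.197 (SE, adjusted p = 0.299). Of the genes described above, Mllt3 had -0.22 in control and -0.03 in separated animals, Lrrc7 -0.32 and 0.08, Pomgnt1 0.15 and -0.02, and Fxyd1 0.33 and -0.12. They were picked for a small p among control animals, so smaller values elsewhere can arise from that choice alone.

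Between ages the genotype difference of control animals was compared over all 69 libraries. At P22 minus P66, 0 of 7131 genes passed in edgeR (smallest adjusted p = 0.699), with 390 (5.47%) at an unadjusted p under 0.05. Bdh2 had the smallest p, with a P22 minus P66 value of 0.89 ± 0.214 (SE) and -0.37 at P66. Prpf38a, a splicing factor gene, had -0.22 and Sord, the sorbitol dehydrogenase gene, 0.25. For Mllt3 the difference at P66 was 0.02 and for Lrrc7 -0.03, but both genes were picked for a small p at P22.

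Between cohorts 0 of 6919 genes passed in a fit of the 17 animals, and 83 (1.2%) had an unadjusted p under 0.05. The smallest p were those of Pter (cohort 1 minus cohort 2, -0.77), the GTPase gene Gem (-0.78) and Dnttip2 (-0.29), with an adjusted p = 1 in edgeR. In cohort 1 alone 397 and in cohort 2 alone 273 genes had an unadjusted p under 0.05 between genotypes, and 0 passed in each.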

How the data were processed

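Per the labels, hippocampal RNA of single male mice was sequenced, and the authors deposited raw counts of reads per gene without normalization. The submitters' processing notes list cutadapt 1.16, FastQC 0.11.4, limma 3.34.9 and edgeR. For aligner, counter, strand setting and build nothing is given in the sources used here. What was held of the table had 9930 complete protein-coding records and 1 broken record, which was left out. GENCODE M21 held 9885 (99.5%) of the identifiers, 96.5% of them at the same position, so positions are on GRCm38. Library totals are sums over these records and not full depths. No pair of libraries within a group agreed within counting error (chi-square per degree of freedom 6.23 to 62.1 over 64 pairs), and 546 genes had no count in the 17 libraries.

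Counts were fitted in R 4.3.3 with edgeR 4.0.16 (quasi-likelihood, TMM, filterByExpr with a minimum count of 10 and total of 15) over all 38 libraries of P22, with group and cohort as terms, and adjusted by Benjamini-Hochberg over 7036 genes. The interaction with age used all 69 libraries, that with cohort the 17. DESeq2 1.42.0 and limma-voom (limma 3.58.1) were alternatives, besides other filters, normalization, covariates and left-out libraries. CPM are per M counts of the TMM-scaled library. The scripts were tested on simulated data. The labels name no litters, so the p-values treat animals as independent.

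The members and the gene lists were chosen with earlier results of these data known. Named are the 20 genes with the smallest p, since fewer than 20 passed, the 4 largest differences in each direction among genes whose mean log2 CPM was 1 or more, the 3 tested members with the smallest p of each list described, all tested genes of adiponectin and T-cadherin signalling, and the 3 with the smallest p of each interaction. A gene that this rule names is not reported here. Gabrd, Grin1, Scn1a, Kcna2, Kcna3, Prox1, Wfs1, Spata5, Tmem56 and the gene-span score were chosen after their values were seen.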

Additional observations from a re-analysis of the deposited data

Results flagged for a closer look

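In 194 groups of values (97 genes in knockouts and in wildtypes), 18 had a single animal far from the rest of its group. The rule was a Dixon ratio on the log scale, the gap to the nearest animal over the range, above 0.493 in knockouts or 0.526 in wildtypes. Cdk8 in wildtype C1-12 (3668 CPM, the next wildtype 1084) and Trh in wildtype C1-32 (25.8 CPM, the next 6.4) stood high but were not flagged by it. Chance flags about 1 in 20 groups, but Spata5 and Tmem56 were added because single animals stood out and others were picked for large differences, so the count cannot be read against that rate. Knockout C1-4 was low in the choroid plexus genes Steap1 (1.07 CPM, the other knockouts 4.35 to 12.4), Aqp1 (2.76 CPM, 15.2 to 59.5) and Wfdc2 (0.844 CPM, 3.5 to 9.82) and in Defb11 (0.384 CPM, 2.66 to 8.83), and high in Slc17a7 (4963 CPM, 3218 to 3835). It also had the lowest TMM factor of the knockouts, 0.933. Knockout C2-43, with the lowest gene-span score, was low in Cd44 (8.63 CPM, 11.9 to 16), Pclo (435 CPM, 545 to 644), Ttn (2.36 CPM, 4.3 to 6.77) and Tmem56 (79.1 CPM, 112 to 160).

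Knockout C2-10 was high in the myelin genes Gsn (548 CPM, 319 to 394) and Mag (984 CPM, 563 to 705), and knockout C1-21 was low in Serping1 (13.3 CPM, 19 to 22.8). Wildtype C1-12 was high in Cd44 (119 CPM, the other wildtypes 12 to 35.4), Spata5 (425 CPM, 46.4 to 126) and Tmem56 (674 CPM, 114 to 192). Wildtype C1-32 was low in Kcna2 (365 CPM, 464 to 570). Wildtype C2-27 was high in Acacb (23.1 CPM, 12.3 to 15.6) and wildtype C2-85 low in Zdbf2 (42.7 CPM, 58.6 to 74).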

How the results depend on the processing

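No gene passed in any alternative run, for the genotype difference and for the 3 interactions. Genes at an unadjusted p under 0.05 numbered 845, and with single animals left out between 439 (without wildtype C1-56) and 1271 (without knockout C2-96). They were 397 in cohort 1, 273 in cohort 2, 223 with the gene-span score as a covariate and 286 without wildtype C1-56 and knockout C2-43, the last 2 settings being chosen after seeing the data, as was leaving out wildtypes C1-12 and C2-85 (647). The cause was not tested. Of 97 genes followed 96 or more kept their sign with DESeq2, limma-voom, RLE and the 17 libraries alone.

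Cdc42, at 0.00, had 0.0068 with DESeq2 and with RLE, 0.0067 with the 17 libraries alone, 0.011 with the choroid plexus score, 0.045 in cohort 1, 0.019 with the gene-span score, 0.018 without C1-56 and C2-43 and 0.0088 without C1-12 and C2-85. Signs also turned in cohort 1 for Prkag2 (0.065) and Gabrd (-0.058) and in cohort 2 for Rac1 (-0.014). With the choroid plexus score, which Aqp1 itself enters, the sign of Aqp1 turned (-0.0079). With the gene-span score, built from tested genes, signs turned for Ilk (-0.072), Stx1a (-0.010), Plxna2 (0.0014), Rpl28 (-0.00023), Rplp2 (-0.020), Sox6 (0.0018), Prox1 (0.020) and Gabrd (-0.0043). Without C1-56 and C2-43 they turned for Prkab2 (0.0079), Ilk (-0.012) and Prkag2 (0.013), and without C1-12 and C2-85 for Gpr55 (0.054) and Cdk8 (0.016). Leaving out single animals gave -0.023 to 0.023 for Cdc42, -0.032 to 0.011 for Prkag2 and -0.082 to 0.00063 for Prkab2. No paired analysis was possible because the number of an animal counts within its own cohort and rearing group and names no pair.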
